A study of Mus musculus with 12 samples.

Results

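The dendritic cell identity genes described here are 10 mouse genes, chosen by symbol and matched to the deposited gene identifiers without their version suffix, out of 55335 genes listed. They comprise the transcription regulators Zbtb46, Spi1 and Id2, the surface and cytoskeletal genes Itgax, Dpp4 and Fscn1, and the growth factor receptor genes Csf2ra, Csf2rb, Flt3 and Kit. The rule that picks them uses symbols and no measured value, although earlier results of these data were known when they were proposed. The genes were followed by RNA-seq in bone marrow-derived dendritic cells (BMDCs) of C57BL/6 mice, in 4 groups of 3 libraries. All groups carried the CreER transgene (a Cre recombinase activated by tamoxifen, placed in the Rosa26 locus) with an intact Ctcf gene, which the study calls WT, and all were grown from bone marrow in murine GM-CSF for 6 days with new medium every 2 days. WT cells received neither agent, and WTL cells received lipopolysaccharide (LPS), the Gram-negative outer membrane component sensed by TLR4, at 100 ng/ml for 3 h. WT + JSH23 cells received JSH-23, a small molecule that blocks nuclear entry of the NF-κB subunit RelA, at 100 µM for 3 h, and WTL + JSH23 cells received the same dose of JSH-23 ahead of LPS.

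The mice were young adults of both sexes. The methods of the study state that floating cells were harvested and that CD11c-positive cells were selected with magnetic beads, while the labels give the cells only as BMDCs. CD11c is the product of Itgax, so cells with this protein were enriched in every group. The study describes 4-hydroxytamoxifen, the ligand that activates CreER, as an addition for deleting floxed Ctcf alleles. Its text can be read as leaving WT cultures without it, or as saying only that WT cells had no such alleles to delete. The methods name no exception for WT, so whether these groups received it was not settled. Whether a solvent control for JSH-23 was included in the other groups is not given in the sources used here. The replicates are described as biological, and pooling of animals is not stated.

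Dendritic cells take up antigen, process it and present it to T cells. Their development from bone marrow progenitors depends on the transcription factor PU.1, encoded by Spi1, and on growth factor receptors that hand over during differentiation: Kit, the stem cell factor receptor, is typical of progenitors and mast cells, Flt3 receives the Flt3 ligand that drives dendritic cell development in the body, and the GM-CSF receptor takes its place in this type of culture. Zbtb46 is a zinc finger repressor typical of classical dendritic cells, Id2 restrains the E proteins that direct the plasmacytoid lineage, and Fscn1 encodes fascin, an actin-bundling protein of mature dendritic cells. Dpp4 encodes CD26, a membrane serine protease carried by a subset of dendritic cells.

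Libraries held between 24664724 and 34837847 expected counts, and the ranges of the 4 groups overlapped. WTL + JSH23 replicate 3 stood apart, with a chi-square per gene of 8.18 and 9.11 against its group mates, where the other pairs of replicates gave 2.33 to 4.50. Values are therefore given without this library where a call changed. All 10 genes passed the filter on low counts, which left 14357 genes. Several defining transcripts of other cell types were absent or near absent. Mcpt4, Tpsb2 and Cma1 of mast cells had 0 counts in all libraries, and Siglech of plasmacytoid dendritic cells did not exceed 2 counts in any library. Other markers listed with them were detected, with up to 733 counts in a library for Hdc (mast cells and basophils) and 254 for Ccr9 (lymphoid and plasmacytoid cells). Transcripts listed for macrophages were abundant in all groups, with a summed level of 12341 to 13170.4 CPM, counts scaled to the library total, over 12 genes in WT. Lyz2 made up most of this sum, with a mean of 9846 CPM in WT. Beside it stood 25100.2 to 25885 CPM over 23 dendritic cell subset and maturation genes, of which Cd74 (8387 CPM) and Ccl22 (6293 CPM) were the largest parts. In bulk RNA a change in the number of cells of one type and a change of RNA per cell cannot be told apart.

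On the mm10 build, Zbtb46 (chromosome 2, 181387762 to 181459426, minus strand), Dpp4 (chromosome 2, 62330073 to 62412231, minus) and Spi1 (chromosome 2, 91082390 to 91115756, plus) share a chromosome, as do Flt3 (chromosome 5, 147330741 to 147400489, minus), Kit (chromosome 5, 75574916 to 75656722, plus) and Fscn1 (chromosome 5, 142960343 to 142973185, plus). Csf2rb (chromosome 15, 78325752 to 78353847, plus) lies beside Csf2rb2 (chromosome 15, 78282507 to 78305721, minus), which encodes a second beta chain used by the mouse interleukin-3 receptor. The remaining genes are Itgax (chromosome 7, 128129547 to 128150657, plus), Id2 (chromosome 12, 25093799 to 25097140, minus) and Csf2ra (chromosome 19, 61223957 to 61228429, minus). Flt3 and Dpp4 overlap an annotated antisense gene, Gm26597 and Gm13561. Of all stretches of 100 bases in the annotated transcripts, 4.63% of those of Csf2rb also occur in Csf2rb2, 3.05% of those of Itgax in Itgad and 2.13% of those of Dpp4 in Gm13561, and none of those of the other 7 genes occur in another gene. Expected counts of Csf2rb were fractional in 12 libraries, so the division of reads between it and Csf2rb2 is an estimate.

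Promoter sequence was taken from RefSeq on GRCm38.p6, which held 8 of the 10 genes. The entries below are shown because the RefSeq start lies at most 12 bases from the outermost annotated start and because they belong to the gene with the largest rise in WTL against WT, to the gene of the selection marker, to the alpha chain of the GM-CSF receptor and to the neighbour of Csf2rb that shares sequence with it. Each is the 250 bases before the start, 5′ to 3′ on the strand of the gene. Capitals mark matches, on either strand, to the core GAGGAA that PU.1 can bind, to the AP-1 letters TGANTCA, to the STAT5 letters TTCNNNGAA or to the NF-κB letters GGANTTTCC.
Fscn1, chr5:142960105-142960354, plus strand: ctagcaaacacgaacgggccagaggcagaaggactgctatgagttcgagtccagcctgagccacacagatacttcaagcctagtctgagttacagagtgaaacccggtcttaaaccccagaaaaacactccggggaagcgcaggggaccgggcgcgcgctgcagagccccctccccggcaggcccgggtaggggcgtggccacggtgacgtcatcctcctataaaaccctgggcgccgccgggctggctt
Itgax, chr7:128129300-128129549, plus strand: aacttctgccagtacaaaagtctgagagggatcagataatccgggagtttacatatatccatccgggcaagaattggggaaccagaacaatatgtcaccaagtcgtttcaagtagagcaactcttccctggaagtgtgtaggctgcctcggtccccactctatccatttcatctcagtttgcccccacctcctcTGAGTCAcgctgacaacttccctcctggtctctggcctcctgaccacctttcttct
Csf2ra, chr19:61228419-61228668, minus strand: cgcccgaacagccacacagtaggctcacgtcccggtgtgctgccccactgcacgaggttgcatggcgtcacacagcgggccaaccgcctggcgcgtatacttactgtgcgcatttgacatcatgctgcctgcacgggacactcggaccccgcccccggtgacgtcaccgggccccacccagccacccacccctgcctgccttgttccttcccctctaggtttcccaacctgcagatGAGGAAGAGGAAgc
Csf2rb2, chr15:78305722-78305971, minus strand: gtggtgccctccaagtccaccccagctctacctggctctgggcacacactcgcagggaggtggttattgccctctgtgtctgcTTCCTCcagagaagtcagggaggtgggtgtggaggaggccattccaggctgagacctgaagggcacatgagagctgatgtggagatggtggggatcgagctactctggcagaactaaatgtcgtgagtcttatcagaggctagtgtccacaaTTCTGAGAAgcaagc

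Fscn1 held none of the 4 motifs in this window. Itgax held an AP-1 match, TGAGTCA, at 56 to 50 bases before the start. Csf2ra held the PU.1 core as a pair, at 14 to 9 and at 8 to 3 bases before the start. Csf2rb2 held the PU.1 core on the other strand at 167 to 162 bases and the STAT5 match TTCTGAGAA at 15 to 7 bases before the start. Of 32851 promoters in the table, 23.3% held the PU.1 core, 7.02% the STAT5 letters, 6.75% the AP-1 letters and 1.07% the NF-κB letters in the same window. The PU.1 core was also found upstream of Kit and Dpp4. The RefSeq start of Zbtb46 lies 35038 bases inside the annotated gene, so its entry is not shown. A match describes letters only, and a missing match says no more than that these letters are not in the window.

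Levels of different genes were compared in TPM, a share of all transcripts that corrects for transcript length. In WT the 10 genes spanned a wide range. Fscn1 stood at 1192 ± 107 TPM, Csf2rb at 1007 ± 25.8, Id2 at 664 ± 4.16, Csf2ra at 485 ± 11.6, Spi1 at 419 ± 13.7 and Itgax at 317 ± 12.3 (SD, n = 3). These 6 genes followed each other without overlap of libraries. Dpp4 (24.3 ± 2.22 TPM) and Zbtb46 (23.5 ± 1.98 TPM) formed a second tier in which the libraries overlapped. Flt3 (2.94 ± 0.431 TPM) and Kit (2.76 ± 0.452 TPM) were lowest and also overlapped. The regulator after which classical dendritic cells are often recognised, Zbtb46, was thus measured at a far lower transcript level than the GM-CSF receptor chains in these cultures.

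The order changed with LPS. In WTL, Fscn1 (2048 ± 52.5 TPM) and Id2 (885 ± 18.7 TPM) led, and Csf2rb fell from rank 2 to rank 4 at 375 ± 29.8 TPM, where its libraries overlapped those of Spi1 (357 ± 17.1 TPM). Zbtb46 (39.7 ± 0.984 TPM) and Dpp4 (12.9 ± 0.321 TPM) no longer overlapped. In WTL + JSH23 the first 4 ranks were held by the same genes as in WTL, and Spi1 (253 ± 3.78 TPM) overlapped Itgax (243 ± 7.02 TPM). Flt3 and Kit held ranks 9 and 10 in each of the 4 groups, with 128 to 261 counts per library for the groups without JSH-23 and 101 to 226 with it.

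**Figure D1:**
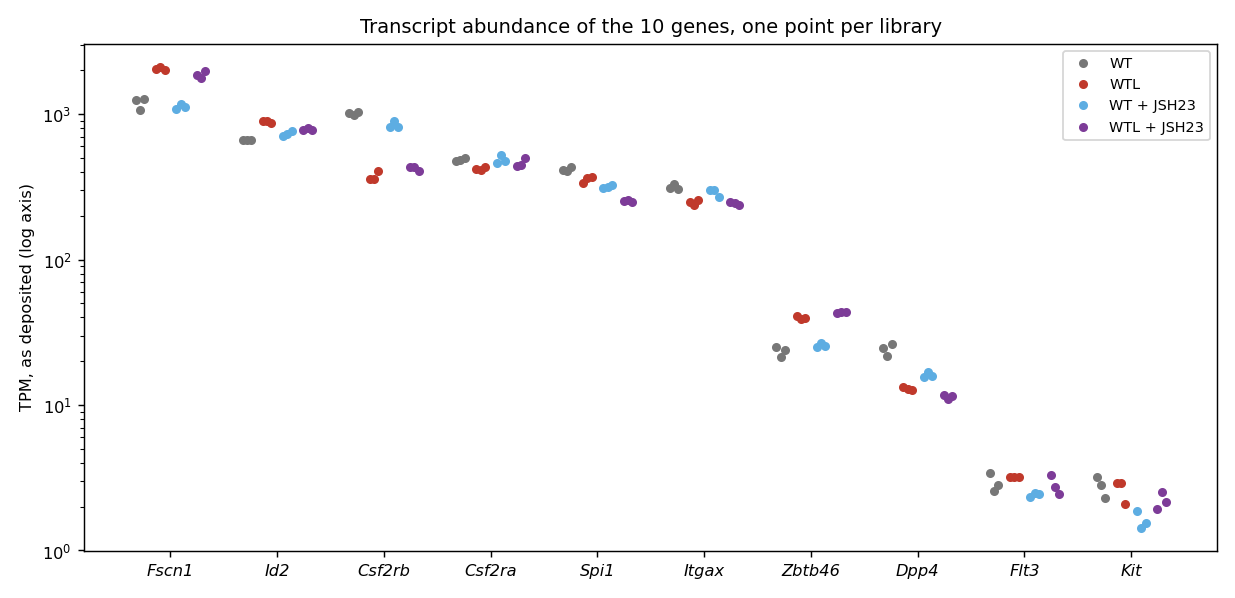
Deposited TPM (log axis) of the 10 genes, 1 point per library, with the groups by colour. Fscn1, Id2, Csf2rb, Csf2ra, Spi1 and Itgax lie at 235.5 TPM or above in all libraries, Zbtb46 and Dpp4 lie between 11.1 and 43.7 TPM, and Flt3 and Kit lie at 3.42 TPM or below.

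Changes between groups were fitted to the expected counts of all 14357 genes after TMM scaling (trimmed mean of M values, edgeR), and a gene was called at an adjusted p under 0.05 (edgeR, Benjamini-Hochberg). LPS in the absence of JSH-23 changed 8 of the 10 genes. Zbtb46, Fscn1, Id2, Flt3, Spi1 and Csf2ra were higher in WTL than in WT, and Csf2rb and Dpp4 were lower. Over all genes tested, 31.1% were called higher and 34.8% lower. The members' split turned with the scaling, with 6 higher and 2 lower on TMM-scaled counts but 3 higher and 5 lower on log2(TPM + 1) with limma. More than 2-fold changes were found for Zbtb46, Fscn1 and Csf2rb, where 16.4% of all genes passed that rule. Zbtb46 stayed under 2-fold with upper quartile scaling (log2 fold change 0.94), without WT replicate 5 (0.97) and on log2(TPM + 1) (0.74), as did Fscn1 on log2(TPM + 1) (0.78) and Csf2rb when summed with Csf2rb2 (-0.94). The median log2 fold change was 0.20 over the 10 genes and -0.05 over all genes.

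After JSH-23, LPS changed 9 of the 10 genes. Higher were Zbtb46, Fscn1, Kit, Flt3, Id2 and Csf2ra, and lower were Csf2rb, Dpp4 and Spi1. This split also depended on the scaling, with 3 members higher and 4 lower on log2(TPM + 1) with limma. The background was 27.5% called higher and 27.1% called lower, and 10.3% of all genes changed by more than 2-fold against none of the 10. The median was 0.23 over the 10 genes and -0.02 over all genes.

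JSH-23 before LPS lowered 7 of the 10 genes and raised none (WTL + JSH23 against WTL, 0 also at an unadjusted p under 0.05 and with DESeq2), beside 24.3% of all genes called lower and 24.7% called higher. The 7 were Spi1, Kit, Dpp4, Id2, Flt3, Fscn1 and Itgax. No member passed 2-fold, which 6.99% of all genes did. The median was -0.27 over the 10 genes and 0.02 over all genes. In the absence of LPS, JSH-23 lowered Kit, Dpp4, Spi1, Flt3, Csf2rb and Itgax and raised Id2 and Zbtb46, where 22.3% of all genes were called lower and 18.9% higher. Again no member changed by more than 2-fold, where the background was 5.34%. The median was -0.18 over the 10 genes and -0.01 over all genes. Each group enters 2 of the 4 comparisons, so they are not independent of each other.

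**Figure D2:**
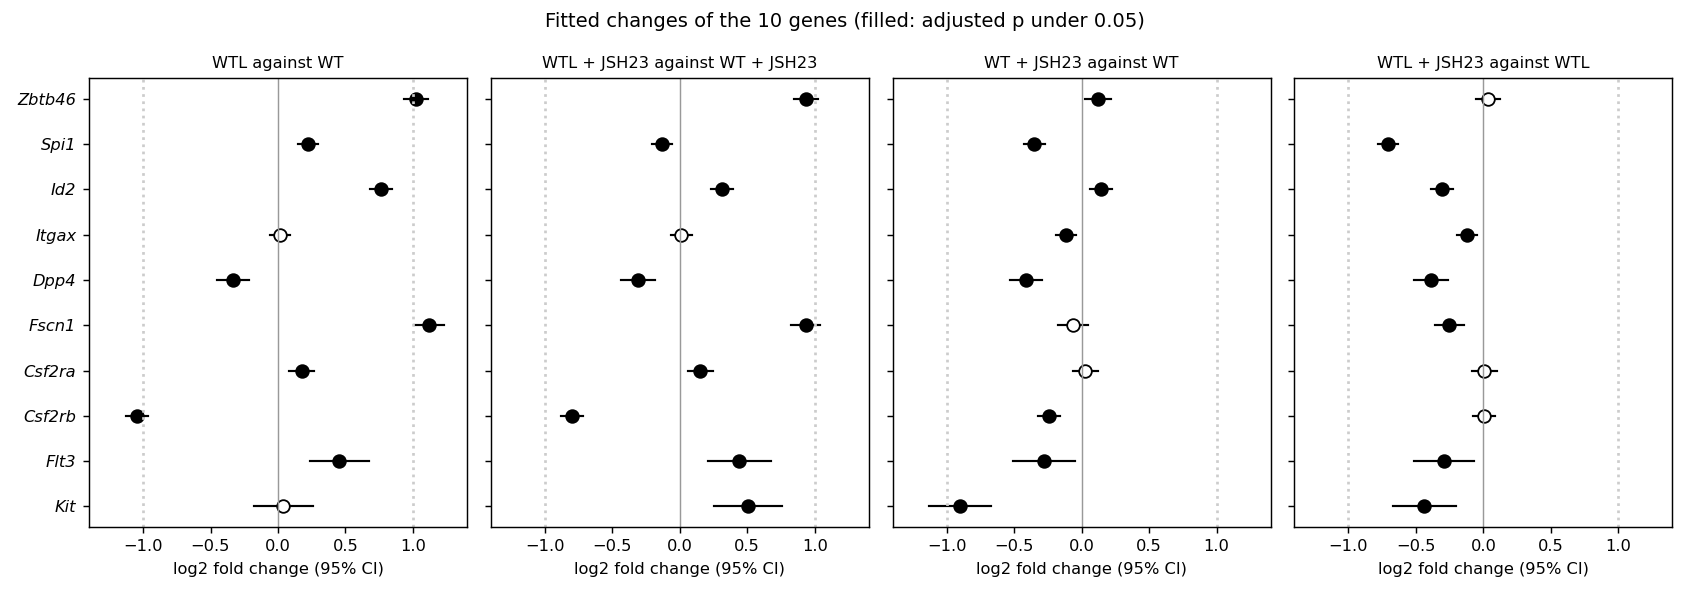
Fitted log2 fold change of the 10 genes with its 95% confidence interval in the 4 comparisons, filled where the adjusted p is under 0.05, with dotted lines at 2-fold. Zbtb46 and Fscn1 lie near 1 in both LPS panels, Csf2rb lies at -1.04 and -0.80, and in the panel of WTL + JSH23 against WTL no filled point lies above 0.

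The direction of the smaller LPS changes depended on the scaling. On the deposited TPM values, which were not scaled between libraries, the median gene was lower by LPS, at -0.30 on the log2(TPM + 1) scale without JSH-23 and -0.18 with it. The share of called genes that were higher with LPS was 47.2% on TMM-scaled counts and 19.6% on TPM without JSH-23, and 50.3% and 24.5% with it (37.8% with upper quartile scaling). Zbtb46, Fscn1 and Id2 were higher and Csf2rb and Dpp4 were lower with LPS under every scaling tried, with and without JSH-23. Spi1, Csf2ra and Itgax did not keep their direction in WTL against WT, and their values on both scales are given below. For WTL + JSH23 against WTL the median gene was at 0.12 on log2(TPM + 1), 68.6% of the called genes were higher against 50.3% on TMM-scaled counts, and of the 7 falls only those of Spi1 and Id2 were called, while Csf2rb was called higher at 0.18 (adjusted p = 0.0171, limma).

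Among the 3 transcription regulators, Zbtb46 had the largest response to LPS. It was measured at 57.3, 62.2 and 64.7 CPM in WT and at 122, 123 and 129 CPM in WTL, a 2.03-fold rise (log2 fold change 1.02, SE 0.04, adjusted p = 1.08e-18). After JSH-23 it was measured at 65.4, 66.0 and 68.8 CPM without LPS and at 127, 128 and 128 CPM with LPS, a 1.91-fold rise (adjusted p = 1.85e-17). The 6 libraries with LPS thus lay together, above the 6 libraries without it. WTL + JSH23 and WTL overlapped, and their difference of 0.03 had a 95% interval of -0.06 to 0.12 on the log2 scale. In resting cells JSH-23 was followed by a log2 difference of 0.12 (adjusted p = 0.0336), which was lost without WT replicate 5 (adjusted p = 0.258), WT replicate 6 (0.0528), WT + JSH23 replicate 1 (0.0531) or WT + JSH23 replicate 2 (0.125).

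Id2 also rose with LPS, and it rose less after JSH-23. WT libraries held 405, 410.3 and 413 CPM and WTL libraries 659.8, 710.0 and 714 CPM, a 1.70-fold rise (log2 fold change 0.76, SE 0.04, adjusted p = 1.54e-16). With JSH-23 the values were 438, 444 and 476 CPM without LPS and 546, 563 and 577 CPM with it, a 1.24-fold rise (adjusted p = 1.17e-07). The 4 groups did not overlap, so WTL + JSH23 lay between WT + JSH23 and WTL. JSH-23 moved Id2 in opposite directions at rest and under LPS, by 0.15 (adjusted p = 0.00413, and 0.0518 without WT + JSH23 replicate 3) and by -0.31 (adjusted p = 1.8e-07) on the log2 scale.

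Spi1 had the largest fall of the 10 genes with JSH-23 under LPS. WTL libraries held 412, 427 and 436 CPM and WTL + JSH23 libraries 256, 261 and 265 CPM, a 1.63-fold fall (log2 fold change -0.71, SE 0.04, adjusted p = 4.26e-16). At rest the values were 354, 368 and 369 CPM without and 283, 286 and 289 CPM with JSH-23, a 1.27-fold fall (adjusted p = 2.96e-09). Libraries with JSH-23 were below all libraries without it. The effect of LPS on Spi1 was small and depended on the scaling: it was 0.22 on TMM-scaled counts (adjusted p = 3.38e-06), 0.09 with an offset for transcript length (adjusted p = 0.0754) and -0.23 on log2(TPM + 1) with limma (adjusted p = 0.000167). After JSH-23, LPS lowered Spi1 by 0.13 on TMM-scaled counts (adjusted p = 0.00318), and it was lower on TPM too.

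**Figure D3:**
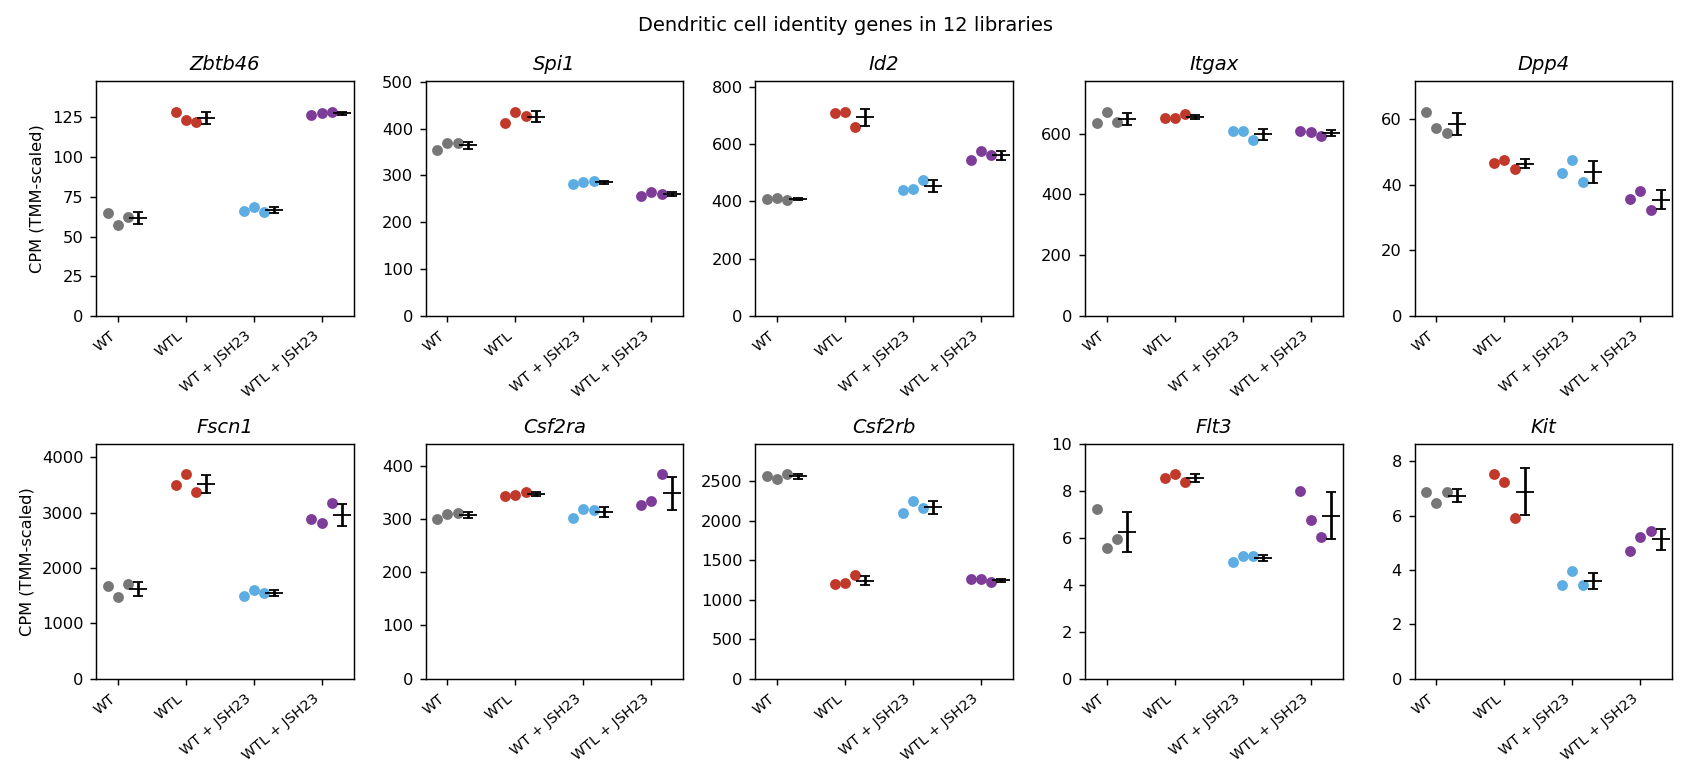
TMM-scaled CPM of the 10 genes in the 12 libraries, 1 point per library with mean and SD beside the points, on linear axes from 0. For Zbtb46, Fscn1 and Csf2rb the libraries fall into a group with and a group without LPS, and for Spi1 the libraries with JSH-23 lie below those without it.

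Fscn1 was the most abundant of the 10 genes by TPM and had the largest rise in WTL against WT, while after JSH-23 its rise and that of Zbtb46 were both 0.93 to 0.94 on the log2 scale. It was measured at 1478, 1676 and 1707 CPM in WT and at 3380.25, 3491 and 3691 CPM in WTL, a 2.17-fold rise (log2 fold change 1.12, SE 0.05, adjusted p = 2.54e-14). With JSH-23 it was measured at 1500.1, 1550.1 and 1599 CPM without LPS and at 2821, 2876 and 3175 CPM with it, a 1.91-fold rise (adjusted p = 1.13e-12). The libraries with LPS were in each case above those without. WTL + JSH23 was 0.25 below WTL on the log2 scale (adjusted p = 0.000371), and all of its libraries lay under the lowest of WTL. At rest JSH-23 left the groups overlapping, with a log2 difference of -0.06 (95% interval -0.17 to 0.04), which reached -0.13 without WT replicate 5 (adjusted p = 0.0408).

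Itgax, the gene of the selected surface protein CD11c, integrin alpha X, had the smallest ratio of highest to lowest TMM-scaled CPM over the 12 libraries. It stood at 634, 638 and 673 CPM in WT, 651, 652 and 664 CPM in WTL, 578, 607 and 609.8 CPM in WT + JSH23 and 592, 607 and 610.1 CPM in WTL + JSH23. LPS gave log2 differences of 0.02 (95% interval -0.06 to 0.09) and 0.01 (-0.07 to 0.09) on TMM-scaled counts, without and with JSH-23, but -0.36 (adjusted p = 2.16e-05) and -0.25 (adjusted p = 0.000547) on log2(TPM + 1) with limma. JSH-23 lowered it by 0.12 on the log2 scale both at rest (adjusted p = 0.0123) and under LPS (adjusted p = 0.00785). The call at rest was lost without WT replicate 5 (adjusted p = 0.083) or WT + JSH23 replicate 3 (0.0949).

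Dpp4 was lower with each agent. It was measured at 55.7, 57.5 and 62.4 CPM in WT, at 44.9, 46.7 and 47.7 CPM in WTL, at 40.8, 43.7 and 47.5 CPM in WT + JSH23 and at 32.5, 35.8 and 38.2 CPM in WTL + JSH23. WT libraries were highest and WTL + JSH23 libraries lowest, while WTL and WT + JSH23 overlapped. LPS lowered Dpp4 by 0.33 (SE 0.06, adjusted p = 1.2e-05) without and by 0.31 (SE 0.06, adjusted p = 0.000103) with JSH-23 on the log2 scale. JSH-23 lowered it by 0.41 at rest (adjusted p = 8.61e-07) and by 0.39 under LPS (adjusted p = 5.55e-06). Its antisense gene Gm13561 overlaps it, and the kits named for the libraries differ in whether strand is kept, so reads of the pair may be mixed.

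The GM-CSF receptor is built from an alpha chain specific to GM-CSF, encoded by Csf2ra, and a signalling beta chain shared with the receptors of interleukin-3 and interleukin-5, encoded by Csf2rb. The chains moved apart with LPS. Csf2rb was measured at 2526, 2565 and 2585 CPM in WT and at 1200.2, 1216 and 1308 CPM in WTL, 2.06-fold lower (log2 fold change -1.04, SE 0.04, adjusted p = 2.93e-20). With JSH-23 it was measured at 2094, 2156 and 2250.1 CPM without LPS and at 1221, 1258 and 1259 CPM with it, 1.74-fold lower (adjusted p = 4.13e-17). The libraries with LPS overlapped each other whether or not JSH-23 had been given, with a log2 difference of 0.01 (95% interval -0.07 to 0.09) between WTL + JSH23 and WTL, while at rest JSH-23 lowered Csf2rb by 0.24 (adjusted p = 7.22e-06).

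Csf2ra did not follow this fall. It was measured at 299.8, 309 and 311 CPM in WT and at 344, 344 and 350.5 CPM in WTL, a log2 fold change of 0.17 (adjusted p = 0.00134) on TMM-scaled counts that was -0.21 (adjusted p = 0.00343) on log2(TPM + 1). With JSH-23 the values were 302, 317 and 319 CPM and, with LPS, 326, 334 and 384 CPM. The high value was that of WTL + JSH23 replicate 3, and without this library the LPS change fell from 0.15 (adjusted p = 0.00564) to 0.08 (adjusted p = 0.0889). JSH-23 gave log2 differences of 0.03 (95% interval -0.07 to 0.12) at rest and 0.01 (-0.09 to 0.10) under LPS.

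The ratio of Csf2rb to Csf2ra, which is taken within a library and needs no scaling between libraries, was 2.08 ± 0.0529 in WT, 0.893 ± 0.0517 in WTL, 1.72 ± 0.0269 in WT + JSH23 and 0.920 ± 0.0888 in WTL + JSH23 (TPM over TPM, SD, n = 3). The beta chain was thus the more abundant transcript at rest and the less abundant one in the 6 libraries with LPS. With 3 libraries against 3, an exact permutation test of such a ratio cannot go below 0.10, and none was run. Csf2rb2 fell along with Csf2rb, from 1469 ± 9.28 to 859 ± 29.3 CPM without JSH-23 (log2 fold change -0.77, adjusted p = 1.94e-17) and from 1151 ± 31.5 to 745 ± 21.9 CPM with it (-0.63, adjusted p = 6.35e-15). Csf2rb held 63.5% ± 0.129 of the counts of the pair in WT, 59.1% ± 0.312 in WTL and 62.6% ± 0.301 in WTL + JSH23. Under LPS, JSH-23 lowered Csf2rb2 by 0.20 on the log2 scale (adjusted p = 4.17e-05), while Csf2rb was not called. For the pair summed this difference was -0.077 (adjusted p = 0.102). Summed over the pair, so that the division of reads no longer matters, the level was 4028 ± 39.5 CPM in WT and 2100.1 ± 87.5 CPM in WTL.

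**Figure D4:**
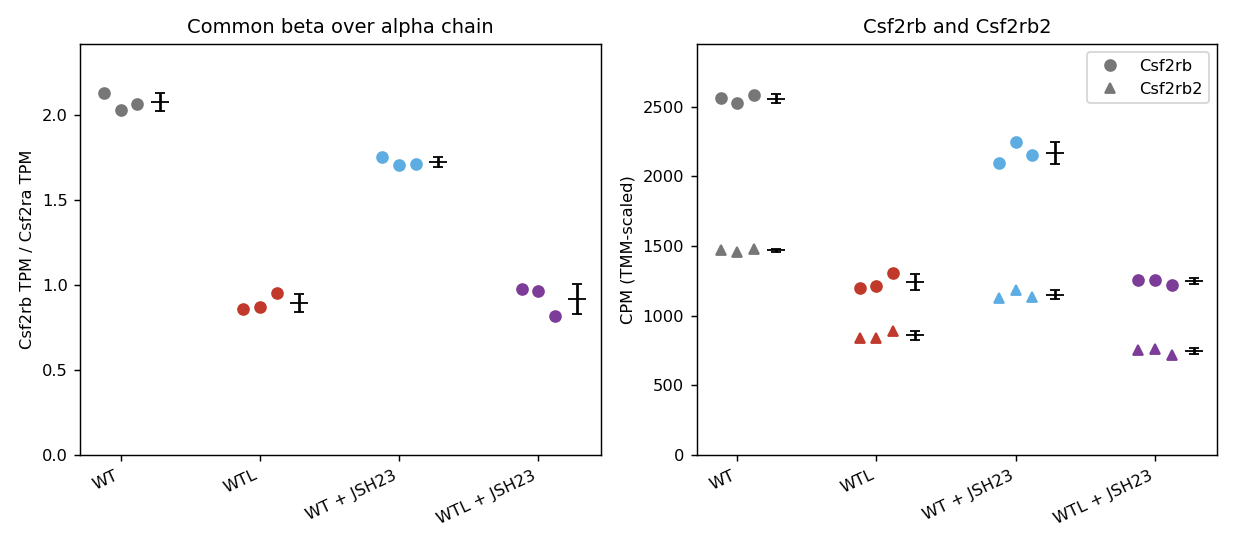
Left, ratio of Csf2rb to Csf2ra (TPM over TPM) by library and group with mean and SD, and right, TMM-scaled CPM of Csf2rb (circles) and Csf2rb2 (triangles). The ratio lies between 1.71 and 2.13 in the libraries without LPS and between 0.818 and 0.975 in those with it.

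Flt3 and Kit, both receptor tyrosine kinases, were the genes with the fewest reads and the widest intervals. Flt3 was measured at 5.55, 5.97 and 7.22 CPM in WT and at 8.38, 8.56 and 8.70 CPM in WTL, 1.37-fold higher (0.45 on the log2 scale, SE 0.11, adjusted p = 0.000455). With JSH-23 it was measured at 4.98, 5.21 and 5.24 CPM without LPS and at 6.05, 6.76 and 8.01 CPM with it, 1.36-fold higher (0.44 on the log2 scale, SE 0.11, adjusted p = 0.00165). The libraries with LPS were above those without in both settings, but on log2(TPM + 1) the changes were 0.10 and 0.16 and were not called. The falls with JSH-23 were close to the threshold. At rest it was -0.28 (adjusted p = 0.0468), and without any 1 of WT replicates 4 and 6, of the WTL replicates or of the WT + JSH23 replicates the adjusted p lay between 0.0539 and 0.325. Under LPS it was -0.29 (adjusted p = 0.0261), with 0.0582 without WTL replicate 4, 0.0752 without WTL replicate 5, 0.0719 without WTL + JSH23 replicate 2 and 0.14 without WTL + JSH23 replicate 3.

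Kit was lower after JSH-23. It was measured at 6.46, 6.86 and 6.88 CPM in WT and at 3.44, 3.44 and 3.94 CPM in WT + JSH23, 1.87-fold lower (log2 fold change -0.90, SE 0.11, adjusted p = 1.01e-07). Under LPS it was measured at 5.89, 7.23 and 7.52 CPM without and at 4.71, 5.21 and 5.44 CPM with JSH-23 (log2 fold change -0.44, SE 0.11, adjusted p = 0.00177). All libraries with JSH-23 lay below those without it on TMM-scaled CPM. On TPM the libraries of WTL + JSH23 and WTL overlapped. The fall under LPS was not called with the length offset (-0.39, adjusted p = 0.0815) or on log2(TPM + 1) with limma (-0.18, adjusted p = 0.273). LPS gave a log2 difference of 0.04 (95% interval -0.17 to 0.26) without JSH-23 and a rise of 0.50 (SE 0.12, adjusted p = 0.000799) after it, which was 0.29 and not called on log2(TPM + 1) with limma (adjusted p = 0.0705). The level of mast cell and basophil transcripts, which include cells that express Kit, summed to 11.5 to 12.6 CPM in WT, 6.48 to 7.28 CPM in WT + JSH23, 22.4 to 27.8 CPM in WTL and 10.4 to 13.6 CPM in WTL + JSH23 over 11 genes, of which Hdc gave most. Hematopoietic progenitor transcripts summed to 25.7 to 28.5, 19.8 to 23.6, 6.70 to 7.41 and 10.3 to 10.9 CPM over 9 genes in the same order of groups. Sox4 was the largest part of each of these sums, with means of 21.7, 16.2, 3.68 and 7.17 CPM. The part of such cells in the levels of Kit and Flt3 was not tested.

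Whether JSH-23 altered the LPS response of a gene was tested directly as the interaction, the log2 LPS change after JSH-23 minus that without it. It was called for 4 of the 10 genes, 2 in each direction (1 higher and 3 lower with DESeq2), where 9.89% of all genes were called higher and 8.73% lower. Of the genes called, 53.1% were higher, against 41.1% with DESeq2 and 80.8% on log2(TPM + 1). No member passed 2-fold as well, which 1.36% of all genes did, and the median was -0.02 over the 10 genes and 0.03 over all genes. Id2 had a smaller rise after JSH-23 (interaction -0.45, SE 0.06, adjusted p = 1.11e-06) and Csf2rb a smaller fall (0.25, SE 0.06, adjusted p = 0.00194). Spi1 changed direction on TMM-scaled counts (interaction -0.36, SE 0.05, adjusted p = 9.95e-06), but the interaction was -0.09 (adjusted p = 0.267) on log2(TPM + 1). Kit had the larger LPS change after JSH-23 (interaction 0.46, SE 0.16, adjusted p = 0.043), and leaving out 1 library ended this call in 8 of 12 cases. These were WT replicates 4 and 6, WTL replicates 5 and 6, WT + JSH23 replicates 1 and 3 and WTL + JSH23 replicates 2 and 3, with an adjusted p between 0.0559 and 0.108 and an interaction between 0.37 and 0.50. The call of Kit was also lost with DESeq2 (adjusted p = 0.103), with its size factors in edgeR (0.0555), without the filter (0.06) and with the length offset (0.381).

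The interactions of Zbtb46 (-0.09, 95% interval -0.22 to 0.04), Csf2ra (-0.02, -0.15 to 0.11), Itgax (-0.01, -0.11 to 0.10), Dpp4 (0.03, -0.15 to 0.20) and Flt3 (-0.01, -0.34 to 0.31) were not called. That of Flt3 leaves the widest range. Fscn1 had an interaction of -0.19 (SE 0.07, adjusted p = 0.0857), which passed without WT replicate 6 (-0.23, adjusted p = 0.0441) or without WTL + JSH23 replicate 3 (-0.24, adjusted p = 0.0105), and also with DESeq2 (-0.21, adjusted p = 0.0266), with its size factors in edgeR (adjusted p = 0.0472) and without the filter (adjusted p = 0.0187). For Dpp4 the interaction was 0.40 on log2(TPM + 1) with limma (adjusted p = 0.0172).

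**Figure D5:**
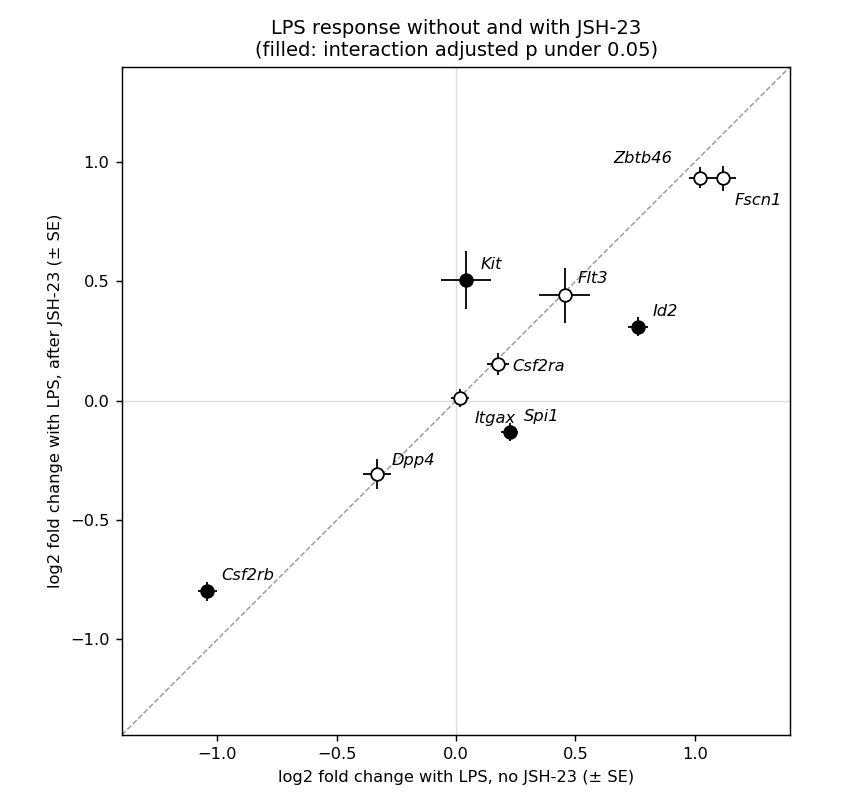
Log2 fold change with LPS after JSH-23 against that without JSH-23 for the 10 genes, with SE bars and a dashed line of equal response, filled where the interaction has an adjusted p under 0.05. Kit and Csf2rb lie above the line and Id2 and Spi1 below it.

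The mean transcript length that RSEM assigns to a gene shifts when the mix of its transcripts shifts, and it feeds into TPM. The libraries of WT and WTL did not overlap in this length for several genes. Spi1 had 1627 to 1699 bases in WT and 1758 to 1802 bases in WTL, and 1659 to 1726 bases in WT + JSH23 and 1677 to 1693 bases in WTL + JSH23, where the libraries overlapped. Dpp4 had 3689 to 4464 bases in WT and 4729.8 to 4941 bases in WTL. Zbtb46 went the other way, with 4412 to 4556 bases in WT and 4247 to 4321 bases in WTL. Csf2rb had 4325 to 4388 bases in WT and 4458 to 4547 bases in WTL. Csf2ra had 1263 to 1276 bases in WT and 1293 to 1318 bases in WTL. After JSH-23 the libraries with and without LPS overlapped for Dpp4, Zbtb46, Csf2rb and Csf2ra too. Itgax and Fscn1 overlapped without JSH-23 but not after it. Itgax then had 3519 to 3657 bases without LPS and 3717 to 3736 with it, and Fscn1 2468 to 2484 and 2449 to 2467. Id2 ranged only from 1246 to 1254 bases over the 12 libraries, with 1246 to 1249 in WT and 1251 to 1254 in WTL. No share over all genes was computed for this readout, and no test of it was run. Whether these genes differ in it from other genes is therefore not known. Kit ranged from 3129 to 5106 bases, and its low counts limit this estimate.

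Of 22 genes listed for signalling by GM-CSF, Flt3 ligand and stem cell factor, 20 were tested. The background for this and the following lists is the share of all genes called, with 31.1% higher and 34.8% lower for LPS without JSH-23, 27.5% and 27.1% for LPS after it, 24.7% and 24.3% for JSH-23 under LPS and 18.9% and 22.3% for JSH-23 at rest. For the interaction the background is 9.89% higher and 8.73% lower. LPS raised 12 and lowered 7 of them without JSH-23 (median log2 fold change 0.26) and raised 13 and lowered 6 with it (0.18), so that the lowered genes were near the background share in both settings. Pim1, a kinase induced by STAT5, rose by 1.87 (adjusted p = 1.13e-20) and 1.27 (adjusted p = 4.91e-17), and Jak2, the kinase bound to the beta chain, by 0.31 (adjusted p = 5.15e-07) and 0.16 (adjusted p = 0.00358) on the log2 scale. JSH-23 lowered 13 and raised 1 under LPS (median -0.23), Jak2 among those lowered at -0.41 (adjusted p = 4.5e-09), and lowered 10 and raised 4 at rest (-0.20), where Pim1 rose by 0.29 (adjusted p = 4.28e-05). The interaction was called for 7 of these genes, 2 higher and 5 lower, with Stat5a at -0.30 (adjusted p = 0.000739).

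The ligands were also followed, named here after their values were seen. Csf2, the GM-CSF gene, did not pass the filter and had at most 8 counts in a library. Kitl, which encodes stem cell factor, fell from 5.06 ± 0.376 to 1.14 ± 0.0139 CPM with LPS (log2 fold change -2.15, adjusted p = 1.57e-13) and from 6.66 ± 0.586 to 4.21 ± 0.397 CPM after JSH-23 (-0.67, adjusted p = 1.53e-05), with an interaction of 1.48 (adjusted p = 2.61e-06). Flt3l fell from 4.63 ± 0.321 to 2.04 ± 0.196 CPM (adjusted p = 3.53e-08) and from 3.82 ± 0.399 to 2.36 ± 0.235 CPM (adjusted p = 0.000193). Kitl moved with LPS in the opposite direction to Kit after JSH-23, and Flt3l in the opposite direction to Flt3 on TMM-scaled counts.

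All 17 other transcription factors listed for dendritic cells were tested. LPS raised 10 and lowered 5 without JSH-23 (median 0.61) and raised 10 and lowered 3 with it (0.44), the lowered genes in neither case above the background share. Irf8, a factor of the classical and plasmacytoid lineages, rose by 0.73 (adjusted p = 7.9e-16) and 0.52 (adjusted p = 5.41e-12), Nr4a3 by 1.22 (adjusted p = 2.32e-19) and 0.77 (adjusted p = 2.08e-14), and Zeb2 by 0.87 (adjusted p = 8e-18) and 0.68 (adjusted p = 8.71e-15). JSH-23 raised 5 and lowered 8 under LPS (median 0.01), with Irf8 at -0.58 (adjusted p = 4.98e-13), and raised 5 and lowered 7 at rest (-0.09), with Irf4 at 0.19 (adjusted p = 0.00377). The interaction was called for 3 higher and 6 lower (median -0.17), the latter including Nr4a3 at -0.45 (adjusted p = 1.1e-05).

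Of 23 subset and maturation markers, 21 were tested, and LPS raised 16 and lowered 2 without JSH-23 (median 0.46) and raised 16 and lowered 3 with it (0.57). Ccl22, a chemokine of mature dendritic cells, rose by 1.08 (adjusted p = 4.22e-21) and 0.80 (adjusted p = 1.28e-17), while Cd74, the invariant chain of MHC class II, rose by 0.23 (adjusted p = 1.18e-05) and 0.14 (adjusted p = 0.00475). JSH-23 lowered 13 and raised 4 of them under LPS (median -0.18) and lowered 10 and raised 6 at rest (-0.08). For the interaction 8 were lower and 1 higher (-0.10), with Marcksl1 at -0.43 (adjusted p = 9.15e-07). Their summed level rose beside Zbtb46 and Fscn1, to between 39075.3 and 40956 CPM in WTL and between 31267 and 33276 CPM in WTL + JSH23, from 23323 to 23702.5 CPM in WT + JSH23.

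Macrophage markers moved with JSH-23 in the direction of Spi1, which is also expressed in macrophages. Under LPS 9 of 12 were lower and 2 higher (median -0.65), and at rest 9 were lower and 1 higher (-0.47). C1qb fell by 0.75 (adjusted p = 3.2e-16) and 0.66 (adjusted p = 8.4e-15), and Lyz2 by 0.30 (adjusted p = 3.83e-08) and 0.31 (adjusted p = 2.88e-08) on the log2 scale. LPS lowered 9 and raised 2 without JSH-23 (median -0.19) and lowered 8 and raised 2 with it (-0.15), with Csf1r, the M-CSF receptor gene, lower by 0.76 (adjusted p = 8.21e-16) and 0.42 (adjusted p = 1.18e-09). The interaction was called for 2 higher and 2 lower (median -0.0023). The summed level was 10918 to 11151 CPM in WTL, 9781 to 10096 CPM in WT + JSH23 and 8881 to 8948 CPM in WTL + JSH23. Lyz2 made up most of it, with means of 8876, 7936 and 7199 CPM in the same order of groups. The part of macrophages in the levels of Spi1 was not tested.

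The remaining lists held few genes with enough reads. Of 12 neutrophil markers 8 were tested, of which 4 rose and 2 fell with LPS, 2 fell with LPS after JSH-23, 8 fell with JSH-23 under LPS and 3 at rest, and their sum ranged from 206 to 307 CPM. Of 11 mast cell and basophil markers 3 were tested, with Hdc higher by 1.30 (adjusted p = 3.83e-13) and 0.95 (adjusted p = 2.58e-08) with LPS and lower by 1.17 (adjusted p = 1.53e-11) and 0.82 (adjusted p = 4.12e-07) with JSH-23. Gata2 was lower with LPS (-0.80, adjusted p = 0.0222), and Prss34 was lower with JSH-23 at rest (-1.11, adjusted p = 0.00922). Of 9 progenitor markers 6 were tested, and LPS lowered 3 of them in each setting, with log2 fold changes of Sox4 of -2.56 (adjusted p = 9.19e-20) and -1.18 (adjusted p = 3.66e-12). Of 12 lymphoid and plasmacytoid markers 2 were tested, and Il7r, which rose with JSH-23 by 0.97 (adjusted p = 7.7e-17) under LPS and 0.82 (adjusted p = 4.29e-15) at rest, made up most of their sum of 235 to 494 CPM, while Ccr9 changed the other way, by -0.85 (adjusted p = 1.19e-05) and -1.30 (adjusted p = 1.45e-09). Of 11 stromal, endothelial and erythroid markers 5 were tested, 3 of which rose with LPS, 2 rose and 1 fell with LPS after JSH-23, 1 rose and 3 fell with JSH-23 under LPS, and 4 rose and 1 fell with JSH-23 at rest. Kdr had log2 fold changes with JSH-23 of -2.43 under LPS (adjusted p = 3.68e-23) and -1.59 at rest (adjusted p = 2.89e-19), and the summed level was 139.9 to 148 CPM in WT, 213 to 217 in WTL, 108 to 113 in WT + JSH23 and 113 to 115 in WTL + JSH23.

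Across the 12 libraries, which share 4 treatments, the profile of each gene was set beside those of 7690 protein-coding genes with a mean of at least 10 CPM, as a description. The closest to Zbtb46 were Irf4, another regulator of dendritic cells (Pearson r of log2 CPM 0.998), and Pip5k1a (0.997). Irf4 stood at 123 ± 8.94, 327 ± 22.0, 141 ± 4.47 and 330.1 ± 12.3 CPM in WT, WTL, WT + JSH23 and WTL + JSH23. Fscn1 was closest to Sh3bp4 (0.998) and to Nfkb2 (0.997), an NF-κB subunit gene, Csf2rb to Atp13a2 (0.998) and Inpp5d (0.997), and Spi1 to Daxx (0.998) and Irgm1 (0.991). Id2 was closest to Klf6 (0.994) and Actg1 (0.992), Dpp4 to Csf3r (0.983), the G-CSF receptor gene, and Rreb1 (0.981), and Csf2ra to Mafk (0.971) and Tada3 (0.958). The values were lower for Itgax (Hinfp 0.959, Brwd3 0.948), Kit (Ciita 0.958, Tmem131l 0.957) and Flt3 (Zfp160 0.945, Grk2 0.942).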

How the data were processed

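RNA-seq of 12 BMDC libraries was used, grouped by sample title. The authors trimmed 100-base read pairs with Trim Galore, aligned them to mm10 with STAR 2.6.0c and quantified genes with RSEM over a GENCODE release not stated. The deposited expected counts are RSEM estimates, in which a pair matching more than one gene is shared out, and carry neither filter nor scaling. The deposited TPM values were derived by the authors from these counts and effective lengths. The labels name rRNA depletion and the methods a stranded polyA kit, and which applied was not settled.

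Expected counts were rounded. After filterByExpr and TMM, a quasi-likelihood F-test of edgeR 4.0.16 (R 4.3.3, robust) used the 12 libraries together with a term for each group, leaving 8 residual degrees of freedom. The p values were adjusted by Benjamini-Hochberg over 14357 genes. Printed adjusted p values are from this test unless another tool is named. SE is the absolute log2 fold change over the square root of F. CPM uses TMM-scaled library sizes, and log2 CPM a prior count of 2. Positions and symbols are from GENCODE M21 (same build). Named genes were the 10 members, Csf2rb2, and from each other list up to 3 called genes per comparison with the highest mean CPM. Likeness was Pearson r of log2 CPM, with the 2 closest genes named. The procedure was tested on simulated data. The members and lists were chosen with earlier results of these data known. Alternatives were DESeq2, other scalings and filters, limma on TPM, a length offset, Csf2rb and Csf2rb2 summed, the 2-fold rule, a replicate block, the 6 libraries compared alone, and each library left out. Replicate files differed by more than sampling noise. No batch is given in the labels, so no within-batch value could be had.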

Additional observations from a re-analysis of the deposited data

Results flagged for a closer look

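The LPS response differed with and without JSH-23, by the interaction test of edgeR over all genes, for 4 of the 10 genes. The interaction, the log2 LPS change after JSH-23 minus that without it, was -0.36 for Spi1 (adjusted p = 9.95e-06), -0.45 for Id2 (adjusted p = 1.11e-06), 0.46 for Kit (adjusted p = 0.043) and 0.25 for Csf2rb (adjusted p = 0.00194). Id2 and Csf2rb kept their call when any 1 of the 12 libraries was left out, as did Spi1, and Kit lost it in 8 of 12 cases. Kit was also not called with DESeq2 (adjusted p = 0.103). On log2(TPM + 1) with limma the interaction of Spi1 was -0.09 (adjusted p = 0.267) and that of Kit 0.34 (adjusted p = 0.237).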

How the results depend on the processing

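Zbtb46, Fscn1 and Id2 were higher and Csf2rb and Dpp4 lower with LPS, with and without JSH-23, under all alternatives except that the 2-fold rule dropped calls. That rule left 3, 0, 0, 0 and 0 members (2351, 1474, 1004, 766 and 195 genes) for LPS without JSH-23, LPS after it, JSH-23 under LPS, JSH-23 at rest and the interaction, in that order. On TPM, 3 members (pseudocount 1) or 4 (0.1) were called for WTL + JSH23 against WTL and 5 with either for WT + JSH23 against WT, where leaving out 1 library gave 5 to 8. For the interaction, 1762 genes were called with pseudocount 0.1 and 1474 with a length offset. The cause was not tested.

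Values that changed sign were as follows. For WTL against WT, Itgax was at -0.065 with upper quartile scaling, -0.356 and -0.357 on TPM with pseudocounts 1 and 0.1 and -0.042 with the length offset. Spi1 was at -0.230 on TPM, Csf2ra at -0.209 and -0.210, and Kit at -0.041 with upper quartile scaling, -0.047 and -0.063 on TPM and between -0.023 and 0.13 with a library left out. For WTL + JSH23 against WT + JSH23, Itgax was at -0.073 with upper quartile scaling, -0.255 on TPM, -0.066 with the length offset and between -0.015 and 0.024 with a library left out, and Csf2ra at -0.084 on TPM. For WTL + JSH23 against WTL, Csf2ra was at -0.018 with DESeq2 or its size factors (-0.069 to 0.055 with a library left out), and Csf2rb at -0.019 with either, -0.077 summed with Csf2rb2 and -0.018 to 0.044 with a library left out. For the interaction, Flt3 was at 0.061 and 0.081 on TPM (-0.13 to 0.073), Itgax at 0.00088 without a filter, 0.0027 with a minimum of 1 CPM and 0.10 on TPM (-0.031 to 0.011), Csf2ra at 0.126 on TPM and 0.0023 with the length offset (-0.098 to 0.025), and Dpp4 between -0.030 and 0.083 with a library left out.

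With the replicate number as a block, 8, 9 and 4 members (9597, 8036 and 3123 genes) were called for LPS without JSH-23, LPS with it and the interaction, and no member's call changed. Deviations of same-numbered libraries correlated at 0.0142 to 0.0614, against -0.0564 to 0.0355 for libraries of unlike number. All of these values are small, and whether the numbers mark paired samples was not settled. No paired analysis was possible for JSH-23 because the groups compared share no number. Counts of 101 to 261 per library limit Flt3 and Kit.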
